A study of Drosophila melanogaster with 16 samples.

Results

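Insulation boundaries are places on a chromosome across which the DNA on one side meets the DNA on the other side less often than elsewhere. They were located in the pooled Hi-C map of control S2 cells, at 20-kb bins of dm3, on the arms 2L, 3L, 3R and X. Each bin was given an insulation score, the log2 of the mean contact between the 5 bins before it and the 5 bins after it over the mean of that quantity on the arm. A bin was taken as a boundary when its score was the lowest within 3 bins on each side and lay in the lowest 25% of the scores of its arm. The boundaries were thus chosen by their scores in the control cells. The rule gave 323 boundaries among 4764 scored bins, 6.78% of them. A low score marks strong insulation. The strength of a boundary was the mean score of the bins 3 to 5 bins away on both sides minus the score of the boundary itself, so a high value marks a sharp boundary.

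Hi-C and histone H3 pan-acetylation ChIP-seq with input were each done on 2 Lam-KD and 2 control cultures of S2 cells, a macrophage-like line from late-stage Drosophila embryos that holds almost no lamin C. Lam-KD cells received double-stranded RNA against lamin Dm0, the lamin present in nearly all fly cells, and control cells received double-stranded RNA against bacterial lacZ. The treatment lasted 4 days by the paper and 5 days by the sample records. All cells thus received double-stranded RNA, no untreated cells were analysed here, and the level of lamin Dm0 was not measured in the Hi-C and ChIP libraries.

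Chromosomes of Drosophila fold into topologically associating domains (TADs), stretches of chromatin whose parts contact each other more than their neighbours. In flies the regions between TADs are rich in active genes, insulator proteins and acetylated histones, while many TAD interiors are inactive, and a part of these is attached to the nuclear lamina (NL) at lamina-associated domains. Acetylation of H3 is a mark of active, open chromatin.

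The replicate maps sum to 19238039 and 20679811 corrected contacts in Lam-KD cells and to 17532453 and 18504925 in control cells. The deposited 1-kb counts of the ChIP libraries sum to 30005502 and 30004808 in Lam-KD cells and 13093678 and 13100860 in control cells. Those of the inputs sum to 2174734 and 3512310 in Lam-KD cells and 2990256 and 1997575 in control cells. By these sums the Lam-KD ChIP libraries were more than 2 times as deep as the control ones, and depth and condition cannot be told apart in the ChIP data. The paper states fewer reads for its ChIP libraries, in a single range for both conditions. With 2 cultures in each condition, an exact permutation test over samples cannot give a two-sided p below 0.333. Maps and libraries are averages over many cells, so a small change in all cells and a larger one in some of them cannot be told apart.

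The boundaries were spread over the arms at a like density. There were 77 on 2L, 78 on 3L, 90 on 3R and 78 on X, between 6.46% and 7.31% of the scored bins of the arm. Neighbouring boundaries lay 240 kb apart in the median, with a range from 80 to 1240 kb. The median score was -1.11, so contacts across a typical boundary were 0.462 times the arm mean, and the scores ran from -2.80 to -0.56. Boundaries on X were the deepest, with a median score of -1.18, against -1.03 on 2L, -1.12 on 3L and -1.02 on 3R. Scores chose the boundaries, so these values describe the choice and were not tested.

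The lowest score on 3L, and on any arm, was at 620001 to 640000, where it was -2.88 and -2.82 in Lam-KD cells and -2.78 and -3.02 in control cells. On X the lowest was at 7600001 to 7620000, with -2.33 and -2.54 in Lam-KD cells and -2.40 and -2.41 in control cells. The values of the conditions overlapped at both of these boundaries. The lowest score on 2L, at 10200001 to 10220000, was -2.27 and -2.19 in Lam-KD cells and -2.43 and -2.30 in control cells. On 3R, at 7040001 to 7060000, it was -2.03 and -1.999 in Lam-KD cells and -2.28 and -1.94 in control cells. Both Lam-KD maps lay above both control maps on 2L, and on 3R the second control map lay above both Lam-KD maps.

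The boundaries with the largest strength were largely the same places. Strength in the pooled control map was 2.59 at the deepest boundary of 3L and 2.49 at that of X, followed by 2.37 on 3L at 1320001 to 1340000, 2.30 at the deepest boundary of 2L and 2.18 on 3L at 10860001 to 10880000. Over the 319 boundaries with data on both sides the median strength was 1.10 and the lowest value was -0.04. At a boundary of that kind the bins around it scored as low as the boundary itself. At the edge of the rule the boundary nearest the threshold had a score of -0.58 on 2L, -0.56 on 3L, -0.65 on 3R and -0.68 on X, and the local minimum just outside it had -0.57, -0.54, -0.59 and -0.64 on the same arms.

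The median insulation score of the 323 boundaries was -1.03 and -0.999 in the Lam-KD maps and -1.11 and -1.07 in the control maps. Both Lam-KD medians were thus above both control medians, which is weaker insulation. The median strength was 1.04 and 1.03 in Lam-KD cells and 1.10 and 1.09 in control cells. With each Lam-KD map set against each control map, the median change of the score over boundaries was 0.088 as the mean of 4 pairs, with pair medians from 0.071 to 0.099, and the median change of the strength was -0.064, from -0.078 to -0.045. A change of 0.088 corresponds to 6.31% more contact across the boundary, relative to the arm mean. Between the 2 control maps the score at the same boundaries differed by -0.012 and the strength by 0.018. Between the 2 Lam-KD maps the score differed by -0.0042 and the strength by 0.0125.

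**Figure D1:**
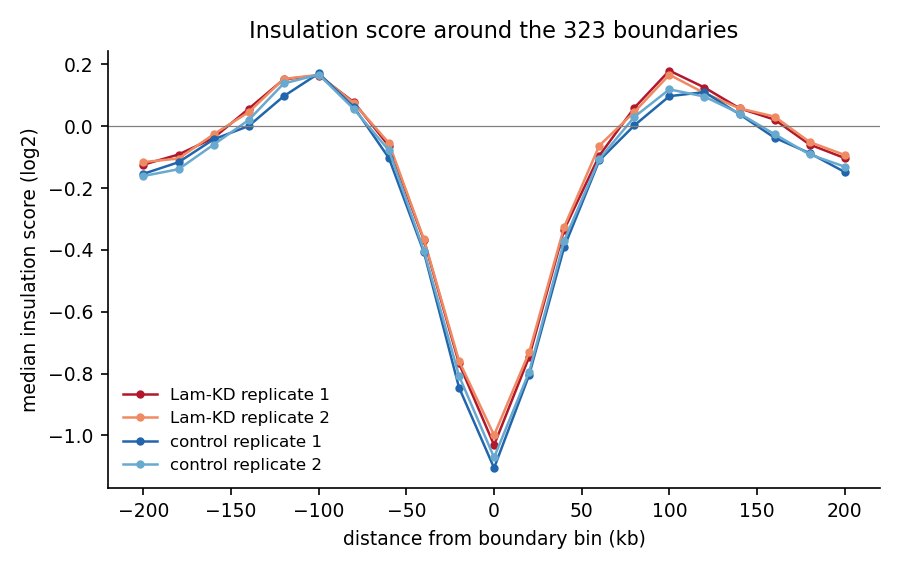
Median insulation score (log2, y axis) by distance from the boundary bin (kb, x axis) over the 323 boundaries, with 1 line for each of the 2 Lam-KD (red, orange) and 2 control (dark and light blue) maps. At the boundary the Lam-KD lines reach -1.03 and -0.999 and the control lines -1.11 and -1.07. At 100 kb to the right the Lam-KD lines, at 0.18 and 0.17, also lie above the control lines, at 0.10 and 0.12. At 100 kb to the left the Lam-KD lines, at 0.164 and 0.166, lie slightly below the control lines, at 0.171 and 0.167.

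The median score change differed with distance from the boundary. It was 0.088 in the boundary bin, 0.063 and 0.073 in the bins 20 kb to its left and right, and between 0.013 and 0.033 at distances from 40 to 200 kb, where the median over all scored bins was 0.014. The rule fixes the boundary bin as the lowest of its surroundings in the control map, so part of this shape comes from the choice. With boundaries chosen in a single map that was left out of the comparison, an alternative added after seeing the data, the median change was 0.072 to 0.089 in the boundary bin, 0.053 to 0.077 in the adjacent bins and 0.023 to 0.040 at 40 kb. Since the score of a bin draws on 5 bins each side, neighbouring values share contacts. The median change was positive on each arm, at 0.093 on 2L, 0.102 on 3L, 0.080 on 3R and 0.070 on X.

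Because boundaries were chosen for low values in control cells, part of a rise in other maps would come from the choice. The change was therefore also taken where the maps compared did not choose the boundaries. At the 330 boundaries called in control replicate 1, the Lam-KD maps exceeded control replicate 2 by 0.075 in the median, and at the 328 called in control replicate 2 they exceeded control replicate 1 by 0.089. The choice was also made in Lam-KD cells, where it would favour low Lam-KD values. At the 325 boundaries of Lam-KD replicate 1, Lam-KD replicate 2 exceeded the control maps by 0.079, and at the 323 boundaries of Lam-KD replicate 2, Lam-KD replicate 1 exceeded them by 0.072. The sign was thus the same whichever map chose the boundaries. The strength was lower in Lam-KD cells in each of these comparisons, with a median change from -0.066 to -0.045.

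**Figure D2:**
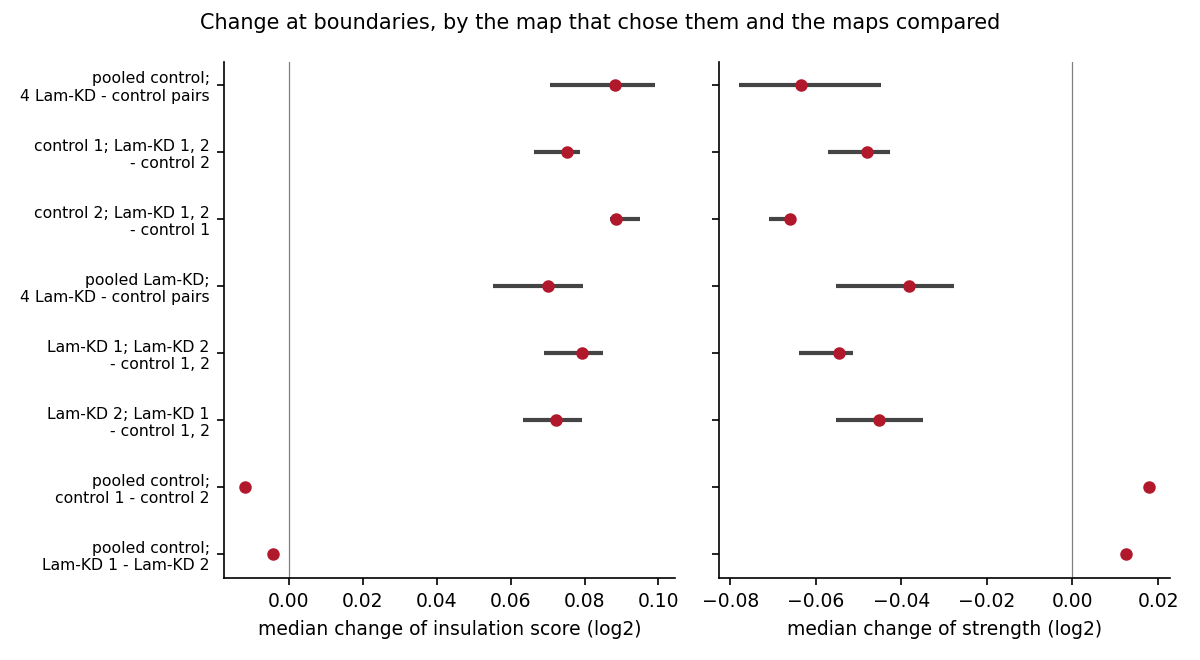
Median change over boundaries of the insulation score (left, log2) and of the strength (right, log2), with rows naming the map that chose the boundaries and the maps compared. Points are medians of the mean change and bars span the lowest and highest pair of maps. In every Lam-KD minus control row the score change lies above 0, from 0.070 to 0.089, and the strength change below 0. The 2 rows within a condition lie closer to 0, at -0.012 and -0.0042 for the score and at 0.018 and 0.0125 for the strength. Their sign depends on which replicate is subtracted.

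Single boundaries gave a mixed picture. Both Lam-KD scores lay above both control scores at 185 of the 323 boundaries, 57.3%, against 35% of all scored bins, and below both at 19 boundaries, 5.88%, against 26.8% of all scored bins. These shares use the maps of the rule and nothing is read from them. With limma on the 4760 bins scored in all maps, 0 bins passed a Benjamini-Hochberg adjusted p of 0.05, so percent called was 0 and 0 boundaries were called, while 128 boundaries and 30.7% of all bins had an unadjusted p under 0.05 in limma. The absence of calls does not show that the scores were equal. At 123 of these 128 the score was higher in Lam-KD cells, which is 38.1% of the 323 boundaries. Over all bins, 19.5% had such a p and a higher score. These p-values also use the maps of the rule, so nothing is read from the direction. The change of a boundary was only partly shared by independent maps. Spearman's rho across the 323 boundaries was 0.204 between the change of Lam-KD replicate 1 over control replicate 1 and that of Lam-KD replicate 2 over control replicate 2, and 0.244 with the control maps exchanged. Across all bins these values were 0.561 and 0.558. Neighbouring bins share contacts, so they are not independent points.

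The largest score differences with no overlap between the conditions were seen at boundaries of X and 2L. On X at 2480001 to 2500000 the score was -1.63 and -1.52 in Lam-KD cells and -1.92 and -2.01 in control cells, a difference of 0.39 (limma SE 0.05, adjusted p = 0.0659). On 2L at 8220001 to 8240000 it was -0.55 in both Lam-KD maps and -0.87 and -0.83 in the control maps. On X at 8600001 to 8620000 it was -0.65 and -0.53 in Lam-KD cells and -0.86 and -0.89 in control cells. At these 3 places the pooled strength in control cells was 2.00, 0.345 and 1.48, so they included sharp boundaries and a shallow one.

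The 3 boundaries with the largest differences in the other direction were all on X. At 4100001 to 4120000 the score was -2.23 and -2.57 in Lam-KD cells and -2.21 and -1.96 in control cells, a difference of -0.31 (limma SE 0.13, adjusted p = 0.168). At 6560001 to 6580000 it was -1.18 and -1.25 in Lam-KD cells and -0.98 and -0.95 in control cells, and at 3660001 to 3680000 it was -1.69 and -1.82 in Lam-KD cells and -1.47 and -1.65 in control cells. The conditions did not overlap at any of these, but the gap at the first and the last was small beside the spread between replicates.

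The range of scores was narrower on the whole Lam-KD map, not at boundaries alone. The SD of the score over all bins was 0.598 and 0.594 in the Lam-KD maps and 0.643 and 0.638 in the control maps. A line of the mean Lam-KD score on the mean control score, fitted over the bins that are no boundary, had a slope of 0.918. That line put the median change at boundaries at 0.100, and the observed median was 0.088, so the boundaries lay -0.0087 from the line of the other bins in the median. Fitted for each of the 4 pairs, the slope was between 0.908 and 0.922 and the boundaries lay between -0.018 and -0.006 from the line. The control scores on which the line rests also chose the boundaries. With boundaries chosen in a single map that was left out of the fit, the line put their median change at 0.095 to 0.106, the observed median was 0.072 to 0.089, and the boundaries lay between -0.022 and -0.012 from the line. Between the control maps the slope was 0.998 or 0.986, by the map taken as x, and between the Lam-KD maps it was 1.00.

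**Figure D3:**
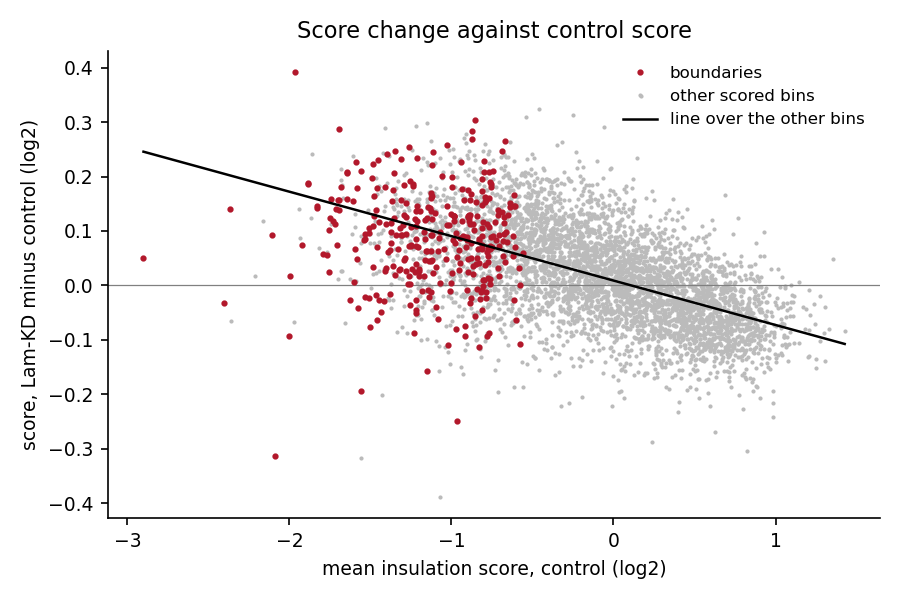
Lam-KD minus control score (log2, y axis) against the mean control score (log2, x axis), with a point for each of 4760 bins, boundaries in red and other scored bins in grey. The black line is fitted over the grey points (slope of Lam-KD on control 0.918), and the red points scatter about its extension to low scores.

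The boundary positions changed little. Of the 323 control boundaries, 302 (93.5%) had a boundary of the pooled Lam-KD map within 1 bin and 267 (82.7%) in the same bin, where 19.9% of all scored bins lay within 1 bin of a Lam-KD boundary. Between a control and a Lam-KD replicate the share within 1 bin was 90.6% to 91.8%. Between the 2 control maps it was 92.4% and 93.0%, and between the 2 Lam-KD maps 93.2% and 93.8%, by the map taken first. Since the pooled maps are deeper than the replicate maps, their share is not directly comparable with these. All 4 replicate maps held 284 of the boundaries (87.9%) within 1 bin.

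The 21 control boundaries with no Lam-KD counterpart were on the median less sharp, with a wide range. Their median strength was 0.648 in the Lam-KD map and 0.703 in the control map, whereas the 302 with a counterpart had 1.05 in the Lam-KD map and 1.11 in the control map. Their control strengths ran from -0.0017 to 1.39, and 4 of the 21 exceeded the median of all boundaries. Of the 21, both control replicates held 15, and 7 lay within 1 bin of a local minimum of the pooled Lam-KD map that missed the threshold of its arm. In turn 17 boundaries of the pooled Lam-KD map had no control boundary within 1 bin, and their median strength was 0.842 in the Lam-KD map and 0.797 in the control map.

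H3 pan-acetylation was measured apart from the maps, and the boundaries were places of high acetylation in both conditions. The median boundary bin held 269.7 and 264.0 RPM, ChIP reads scaled to a library sum of 1000000, in Lam-KD cells and 281.0 and 289.3 in control cells, whereas the median of all scored bins was 123.8 and 124.8 in Lam-KD cells and 108.1 and 106.3 in control cells. The input was itself higher at boundaries, at 211.6 and 217.6 RPM in Lam-KD cells and 214.7 and 216.4 in control cells, against 139.7 to 141.8 over all bins in the 4 inputs. After division by input the median log2 level at boundaries was 0.29 and 0.28 in Lam-KD cells and 0.39 and 0.35 in control cells, against -0.17 and -0.17 over all bins in Lam-KD cells and -0.35 and -0.38 in control cells. The excess over all bins was thus 0.47 and 0.44 in Lam-KD cells and 0.74 and 0.73 in control cells. It was larger than the gap between replicates in each condition.

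Of the boundaries, 217 (67.2%) were among the 25% of all scored bins with the highest control ChIP over input, and 23 (7.12%) among the lowest 25%. The boundary bin was the highest of the 7 bins centred on it at 117 boundaries, 36.2%, against 13.6% of all scored bins, and the highest of the 7 lay within 1 bin of the boundary at 71.8% of boundaries, against 41.1% of all scored bins. The peak was broad. Mean ChIP reads in the boundary bin were 1.77 and 1.75 times the mean of the 4 arms in Lam-KD cells and 1.95 and 1.99 times in control cells, and 50 to 100 kb away they were 0.99 times in Lam-KD cells and 0.98 times in control cells. Input rose to 1.46 and 1.47 times in Lam-KD cells and 1.47 and 1.49 times in control cells.

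**Figure D4:**
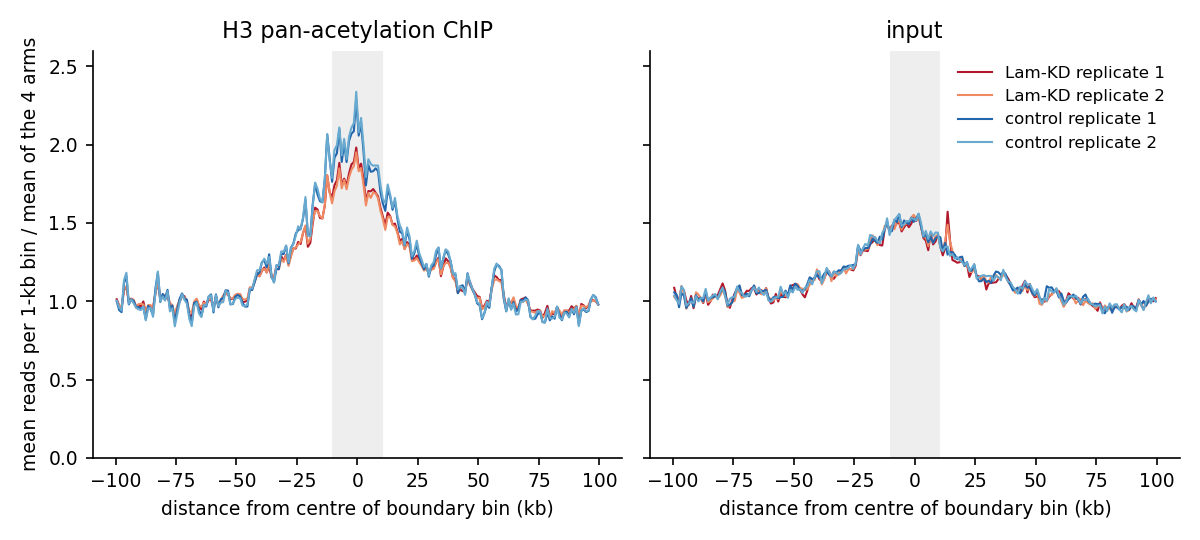
Mean reads per 1-kb bin over the mean of the 4 arms (y axis) by distance from the centre of the boundary bin (kb, x axis), for H3 pan-acetylation ChIP (left) and input (right), with 1 line for each of the 2 Lam-KD and 2 control libraries. Within the boundary bin, shaded, the Lam-KD ChIP lines average 1.77 and 1.75 and the control ChIP lines 1.95 and 1.99, whereas the 4 input lines lie between 1.46 and 1.49.

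Among the boundaries themselves acetylation and insulation were only loosely related. Spearman's rho between control ChIP over input and the score was -0.501 over the 4760 scored bins, and -0.177 over the 323 boundaries, whose scores span a narrow range by choice. With strength it was 0.170 over 319 boundaries. Control input by itself had a rho of -0.543 with the score over all scored bins, and of -0.064 with strength at boundaries. The bins are neighbours on the same arms and were measured in the same few libraries, so these are descriptions. Boundaries in the highest 25% of acetylation had a median strength of 1.17, those in the next bands of 25% had 0.911 and 0.961, and the 23 in the lowest had 1.20. Some sharp boundaries thus lay in poorly acetylated chromatin.

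The 3 most acetylated boundaries were all on X. ChIP over input in control cells was 1.63 on the log2 scale at 520001 to 540000, where ChIP RPM values were 294.2 and 260.9 in Lam-KD cells and 277.6 and 317.8 in control cells. It was 1.62 at 1760001 to 1780000 and 1.47 at 680001 to 700000. The median over all boundaries of X was 0.46, against 0.36 on 2L, 0.34 on 3L and 0.33 on 3R. In the highest 25% of acetylation lay 53 of the 78 boundaries of X, 67.9%, close to the 67.2% over the 4 arms.

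At the low end the boundary on X at 100001 to 120000 held at most 3 reads in any library and lay beside bins without data, so it has no usable level. The next were on 3L at 23740001 to 23760000, with -2.07, and on 3R at 14240001 to 14260000, with -1.34. At the first of these the ChIP RPM values were 69.3 and 67.9 in Lam-KD cells and 51.4 and 66.5 in control cells, while the input itself differed, with 95.1 and 97.3 in Lam-KD cells and 239.4 and 250.9 in control cells (edgeR on input reads, log2 fold change -1.34, adjusted p = 5e-20). Its ChIP over input therefore rests on an input that moved with the condition. It was the only boundary called in the input by edgeR, where 0.0501% of all bins tested were called lower and 0.0167% higher.

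Some boundaries coincided with an excess of input. At 85 boundaries (26.3%) the control input was more than 2 times the median of all bins, as at 10.2% of all scored bins. The deepest boundary of 3L was an extreme case, with 1233 and 1143 input RPM in Lam-KD cells and 1254 and 1261 in control cells, and the deepest boundary of X had 692.7 and 616.3 in Lam-KD cells and 644.0 and 623.7 in control cells. The part of copy number, repeats and open chromatin in this excess was not tested. The 238 boundaries at or under 2 times the median had a median strength of 1.10 and a score change of 0.093, and the 85 above it had 1.07 and 0.061.

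The excess of acetylation at boundaries over the rest of the arms was smaller in the Lam-KD libraries, which were also the deeper ones. The share of ChIP reads changed by a median log2 fold change of -0.076 at boundaries, with pair medians from -0.115 to -0.040, and by 0.21 over all scored bins, with pair medians from 0.17 to 0.22. The difference between boundaries and all bins was -0.29, and lay between -0.34 and -0.21 in the 4 pairs. Between the control libraries it was -0.048 and between the Lam-KD libraries 0.035. A constant scaling of libraries cancels in this difference, but an effect of depth on the fullest bins does not. With counts corrected for filled bins, as described below, the difference was -0.20. As a value for each library, the median log2 ChIP share at boundaries stood 1.10 ± 0.03 above that of all bins in Lam-KD cells and 1.41 ± 0.05 above it in control cells (SD, n = 2 each), and the exact two-sided permutation p over samples was 0.333, the smallest this design allows. The input share changed by -0.014 at boundaries and by 0.0054 over all bins.

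The difference fell off with distance from the boundary. Relative to all bins it was -0.29 in the boundary bin, -0.18 and -0.17 in the adjacent bins, -0.050 and -0.057 at 40 kb, and between -0.020 and 0.012 from 60 to 200 kb. It had the same sign on each arm, at -0.33 on 2L, -0.29 on 3L, -0.31 on 3R and -0.24 on X.

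Across all bins the change followed the level of ChIP reads, here not divided by input. Boundaries followed it much like other bins but lay slightly lower at each level. Bins were sorted by their ChIP RPM in control replicate 1, and the change was taken against control replicate 2, so that the same library did not set both. At 256 to 512 RPM the median change was -0.16 at 145 boundaries and -0.13 at 553 other bins. At 512 or more it was -0.36 at 36 boundaries and -0.33 at 132 other bins. Below 64 it was 0.30 at 11 boundaries and 0.36 at 957 other bins. Boundaries stood between -0.074 and -0.027 from other bins of the same level over the 5 levels, against -0.29 from all bins.

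**Figure D5:**
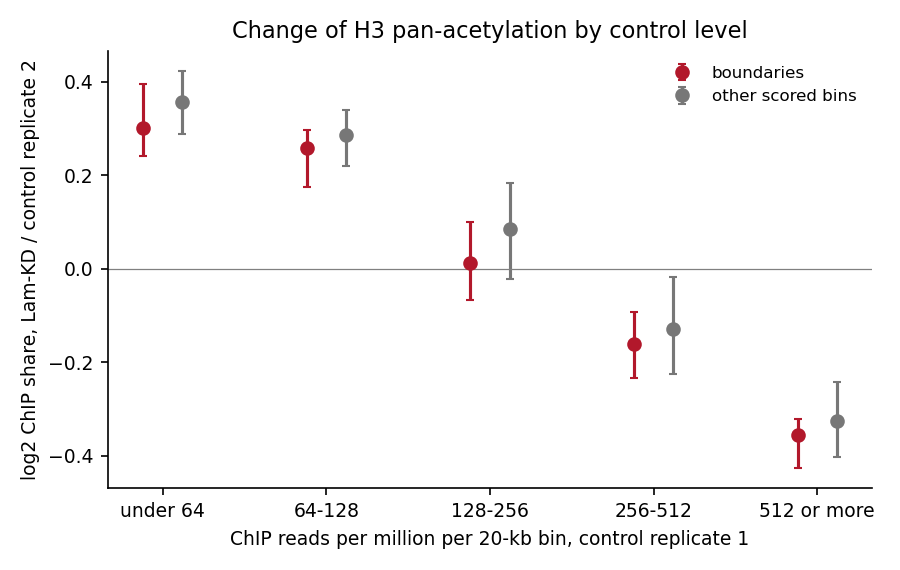
Log2 ratio of the ChIP share, Lam-KD over control replicate 2 (y axis), by the ChIP RPM of a 20-kb bin in control replicate 1 (x axis). Points are medians and bars span the middle 50% of bins, for boundaries (red) and other scored bins (grey). The boundaries run from 0.30 at the lowest level to -0.36 at the highest and the other bins from 0.36 to -0.33, and the red point is the lower of the pair at every level.

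The same bins differ in how full they are. The authors removed duplicate reads, so at most 2148 distinct reads of 75 bp, over both strands, can overlap a 1-kb bin. The fullest 1-kb bin held 2119 and 2103 reads in the Lam-KD libraries and 1933 and 1954 in the control libraries. A 1-kb bin more than 50% full was present in 176 and 154 of the 323 boundaries in the Lam-KD libraries and in 50 and 49 in the control libraries. Of all 1-kb bins, 2.56% and 2.21% were that full in the Lam-KD libraries and 0.421% and 0.441% in the control libraries. A boundary spans many 1-kb bins, so its share is not directly comparable with these. When the counts were corrected for this filling by the Poisson relation between reads and occupied positions, the change was -0.045 at boundaries and 0.16 over all bins, a difference of -0.20. The correction assumes reads spread evenly in a bin, so what remains of the effect of depth was not tested.

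By edgeR's quasi-likelihood test on ChIP reads with library sums as sizes, 34 of the 322 boundaries that passed the count filter rose and 95 fell (Benjamini-Hochberg adjusted p under 0.05), where percent called over all bins was 48.9 for rises and 8.76 for falls. Both Lam-KD libraries lay above both control libraries at 64 of the 323 boundaries, against 67% of all scored bins, and below both at 146, against 14.6%. The split depended on the scaling, which moved the median of all bins by -0.17 log2 from library sums to TMM. With TMM factors, edgeR called 0 rises, with 4 boundaries and 9.34% of bins at an unadjusted p under 0.05 in that direction, and 155 falls, where percent called was 0.367 and 16. DESeq2 called 0 rises, with 0 boundaries and 1.56% of bins at an unadjusted p under 0.05, and 181 falls, with percent called of 0.0832 and 18.8. On counts corrected for removed duplicates edgeR called 0 boundaries and 0 bins, with 74 boundaries and 42.7% of bins at an unadjusted p under 0.05. Without control replicate 2 edgeR also called 0 boundaries and 0 bins, with 101 boundaries and 40.4% of bins at an unadjusted p under 0.05, and without control replicate 1 it called 71 boundaries and 32.3% of bins. The counts therefore rest on the scaling, on the filling of bins and on single libraries.

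The largest fall among the called boundaries was at the deepest boundary of 3L, with 943.3 and 909.3 ChIP RPM in Lam-KD cells and 1512 and 1586 in control cells, a log2 fold change of -0.74 (DESeq2 SE 0.08, edgeR adjusted p = 0.0143). Its fullest 1-kb bin held 2112 reads in Lam-KD cells and 1932 in control cells, close to the ceiling of 2148 in both, and with corrected counts its log2 fold change was -0.46 (edgeR adjusted p = 0.0821). On 3R at 2900001 to 2920000 the level was 685.4 and 668.6 in Lam-KD cells and 971.8 and 996.6 in control cells, a log2 fold change of -0.54. On X at 8780001 to 8800000 it was 770.5 and 792.3 in Lam-KD cells and 1147 and 1105 in control cells, a log2 fold change of -0.53. With TMM factors these 3 were also called lower, each with an edgeR adjusted p of 0.00253. With corrected counts the log2 fold change was -0.34 at both the second and the last, and none of the 3 was called (edgeR adjusted p = 0.0821 for each).

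The 3 largest rises were at boundaries with few ChIP reads. On X at 4100001 to 4120000 ChIP RPM values were 34.0 and 36.0 in Lam-KD cells and 26.3 and 25.1 in control cells, a log2 fold change of 0.44 (DESeq2 SE 0.14, edgeR adjusted p = 0.0169). On 3L at 23100001 to 23120000 they were 55.8 and 66.8 in Lam-KD cells and 46.8 and 48.1 in control cells, and on X at 14700001 to 14720000 they were 89.6 and 80.7 in Lam-KD cells and 63.4 and 72.7 in control cells. Control ChIP over input was -0.62, -1.09 and -0.27 on the log2 scale at these boundaries, so the last was above the median of all bins. The groups did not overlap at any of these 3, but with TMM factors none was called, with edgeR adjusted p of 0.0955, 0.201 and 0.257. The first is also the boundary with the largest negative score difference, and its score spread by 0.335 between the Lam-KD maps.

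Spearman's rho across the 323 boundaries between the change of the score and the change of the ChIP share was -0.036. The score change itself repeated only weakly between independent pairs of maps, with a rho of 0.204 and 0.244. A low rho between the 2 measures therefore cannot show that their changes were unrelated. The score change was 0.092 in the highest 25% of acetylation, 0.093 and 0.072 in the next bands of 25% and 0.068 in the lowest, whereas the change of the ChIP share ran against its control level with a rho of -0.749 across boundaries, in which the control libraries enter both sides.

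Boundaries also differed in what lay on either side. Judged by control ChIP over input 3 to 5 bins away, both flanks were above the median of all bins at 107 boundaries, a single flank at 148 and neither at 68. The median strength was 0.907 with both flanks acetylated, 1.07 with a single one and 1.39 with neither. Strength is computed from the scores of these same flank bins. Over all scored bins, score and acetylation had a rho of -0.501, so this order may come in part from the definition. The median score change upon Lam-KD was 0.109 with both flanks acetylated, 0.093 with a single one and 0.062 with neither, and the pair medians ran from 0.084 to 0.106, from 0.087 to 0.103 and from 0.025 to 0.081 in the same order. The pair medians with both flanks and with neither did not overlap, by a small margin. The strength changed by -0.057, -0.068 and -0.061, and no difference between the sets was tested.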

How the data were processed

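The members and comparisons were chosen with earlier results of these data known. Per the paper's methods, the authors mapped Hi-C reads to dm3 with Bowtie 2 2.2.1 and balanced the maps by iterative correction, so the signal deposited for 2 bins of 20 kb is their balanced contact, not scaled between maps. For ChIP and input the deposited values are read counts in 1-kb bins, for which the authors dropped poorly mapped reads and duplicates and used bedtools 2.16.2. RNA-seq files were not used. Bins without data were left out of a score, which needed at least 13 of the 25 pairs, so 15 boundaries used fewer than 25. Scores are ratios to the arm mean and do not depend on the sum of a map.

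Shares of reads were taken in 20-kb bins, relative to all reads of the library on 2L, 2R, 3L, 3R, X and 4, with 0.5 read added before the log. Scores were tested with limma 3.58.1 and ChIP reads with edgeR 4.0.16 (quasi-likelihood, filterByExpr), with DESeq2 1.42.0 in R 4.3.3 as an alternative, all over every bin with Benjamini-Hochberg adjustment. The edgeR fit ran on 5993 bins of 6 arms, the limma fit on the 4 arms of the rule. The standard errors given for ChIP changes come from DESeq2. Fits were tested on simulated data. There the share of false calls by edgeR exceeded its nominal level, and limma missed the smaller changes. Replicate libraries differed beyond counting noise (chi-square over its degrees of freedom 18.2 and 6.03 for Lam-KD and control ChIP, 1.41 and 1.57 for the inputs), and p-values measure the spread between 2 cultures. Named boundaries were the lowest score of each arm, the 5 of largest strength, the 3 highest and 3 lowest in control ChIP over input, the 3 largest rises and 3 largest falls of ChIP reads called by edgeR with 1 sign in all pairs, and the same of the score without overlap between groups. Alternatives covered the reach of the score, the threshold, the map that chose the boundaries, observed/expected maps, input, scaling, filter, duplicates, a replicate block and leaving out each replicate. No genome or gene positions of dm3 were used here, so no sequence or gene is given. Other steps ran in Python 3.11.15 (pandas 2.3.3, scipy 1.17.1, numpy 2.4.6), and matplotlib 3.10.9 drew the figures.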

Additional observations from a re-analysis of the deposited data

How the results depend on the processing

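The number of boundaries was 403 with 3 bins and 246 with 10 bins on each side, 187 in the lowest 10% and 473 with no threshold. The score change was 0.108 with 3 bins, 0.041 with 10 bins, 0.0715 on observed/expected maps, 0.0753 for boundaries of control replicate 1 and 0.0701 for those of the pooled Lam-KD map, and 0.0845 to 0.0923 without each replicate. The strength change was -0.0926, -0.0218, -0.0352, -0.0481 and -0.0383 in the same settings, and -0.0706 to -0.0537 without each replicate. Both kept their sign. At boundaries with data in all bins around them, an alternative chosen after seeing the data, they were 0.089 and -0.066.

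The excess of control acetylation over all bins was 0.72 as the difference of medians over the mean of both replicates, 1.42 without input, 0.41 with 1 bin on each side added, 0.82 in the lowest 10%, and 0.73 to 0.74 without each replicate. The acetylation change relative to all bins was -0.20 with corrected counts, -0.23 over input, -0.17 with 1 bin on each side added, and -0.32 to -0.24 without each replicate. The count of boundaries called by edgeR was 129, and 0 with corrected counts, 155 with TMM, 181 with DESeq2, 129 with no filter, and 0 to 127 without each replicate. The share of all bins called was 57.6% with library sums, 57.5% with no filter and 0% to 58.3% without each replicate. With a replicate block 65 boundaries (20.2%) and 31.1% of all bins were called, and limma called 0 scores with or without it. The samples share only a number. Same-numbered ChIP libraries deviated from their group means in opposite ways (correlation -0.607), and with the numbers crossed, chosen after seeing the data, the block called 217 boundaries (67.4%) and 80.4% of all bins. The share of boundaries found again was 82.7% in the same bin, 92.6% with 3 bins on each side, and 90.6%, 91.2%, 91.8% and 91.8% between replicate maps. All other planned settings stayed within the spread between replicates or 1.5 times the count. Resolution of 20 kb limits where a boundary is placed, and the 2 cultures in each condition limit every test.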

Other observations

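Between the boundaries the score profile had peaks, which mark the interior of domains. At the 293 bins that were highest within 3 bins on each side and in the highest 25% of the arm, the median control score was 0.72 and the score changed by -0.044 upon Lam-KD, with pair medians from -0.058 to -0.043. The peaks were chosen for high control scores, so a part of this change comes from the choice. With 289 to 309 peaks chosen in a single map that was left out of the comparison, the median change was -0.051 to -0.036, and it was not tested.

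The contrast in acetylation between the flanks of a boundary was also smaller in the Lam-KD libraries. Counts here were not corrected for the greater depth and fuller bins of these libraries, and the part of depth was not tested. With each boundary oriented by control replicate 1, the difference of ChIP over input between the flanks, 3 to 5 bins away, was 0.24 and 0.20 on the log2 scale in Lam-KD cells and 0.33 in control replicate 2 in the median of 323 boundaries. At the 11 boundaries where it exceeded 1 in control replicate 1 it was 1.00 and 0.73 in Lam-KD cells and 1.16 in control replicate 2.

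The median strength change was negative at both sharp and shallow boundaries. Here the boundaries called in control replicate 1 were sorted by their strength in that map, and the Lam-KD maps were compared with control replicate 2. The strength changed by -0.027 and -0.023 in the Lam-KD replicates in the lowest 25% and by -0.045 and -0.056 in the highest 25%, each holding 82 boundaries. Over the boundaries of the pooled control map, strength differed by 0.018 in the median between the control maps. The change in the lowest 25% was close to that spread. The comparison rests on a single control map and was not tested.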
